A study of Mus musculus with 12 samples.

Results

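A set of 10 genes that mark how macrophages are activated was followed in injured muscle of dystrophic mice given an inhibitor of the microRNA miR-106b. The genes were chosen by symbol from the 28116 gene symbols of the expression table, as markers of an inflammatory state (Nos2), of alternative activation (Arg1, Mrc1, Chil3, Retnla and Cd163) and of tissue repair (Spp1, Gpnmb, Trem2 and Fn1). The choice rested in part on the higher Arg1 of inhibitor-treated muscles at day 3, so the day 3 difference between the arms is given for these genes as a description without a test. All 10 passed the filter on low values, which kept 14063 genes with at least 1 CPM (reads scaled to library size) in at least 3 of the 12 libraries. For Arg1 the filter was met through the day 3 groups alone, since it stayed under 1 CPM in each of the 6 day 7 libraries, and Chil3, which reached 1 CPM in 1 library of each day 7 group, also met it through day 3. Their changes between the days are therefore given as a description.

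The animals were 4-month-old C57BL/10ScSn-Dmdmdx/J (mdx) mice, which lack functional dystrophin and serve as a model of Duchenne muscular dystrophy. Each tibialis anterior muscle, a muscle of the lower leg, received cardiotoxin, a cobra venom peptide that kills fibres, together with anti-miR-106b or with a scrambled anti-miR. RNA of whole muscle was sequenced in 4 groups of 3 animals, made up of both injections collected after 3 days and both after 7 days. Every group therefore carried the mdx mutation and a toxin injury, and no uninjured or dystrophin-sufficient muscle was part of the comparison. The study's description gives the later day once as day 5, whereas each library is labelled day 3 or day 7. Whether both legs of any mouse were used is not stated, and libraries were treated as independent.

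Macrophages enter injured muscle in large numbers, first in an inflammatory state in which they clear dead fibres and later in a state that promotes fibre growth and matrix repair. Inducible nitric oxide synthase (Nos2) and arginase 1 (Arg1) use the same substrate, arginine, and have long served in mice as opposite markers of these states. In dystrophic muscle the cycles of damage overlap, so that inflammatory and repair states occur side by side. A microRNA such as miR-106b lowers the output of messenger RNAs that pair with its seed, bases 2 to 8, usually in their 3′ untranslated region (3′ UTR).

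The microRNA itself is shown first because its seed is the sequence that the inhibitor masks. Mature miR-106b-5p, as annotated by RefSeq (chr5:138165787-138165807, minus strand, GRCm38.p6), has its seed in capitals:
miR-106b-5p: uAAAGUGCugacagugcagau
A match to this seed in DNA letters is GCACTTT. The longest 3′ UTR of each gene in GENCODE M21 (GRCm38) was searched on the coding strand for GCACTTT, for the longer match GCACTTTA and for the shifted match CACTTTA, which overlap one another. Nos2, Spp1 and Trem2 each had 1 copy of GCACTTT and the other 7 genes had none. Of the 12931 kept genes with a 3′ UTR, 1937 had at least 1 copy. GCACTTTA and CACTTTA were in none of the 10 members, and in 576 and 1810 of the kept genes. The sites, with the match in capitals, lie on the plus strand at chr11:78960031-78960058 for Nos2, chr5:104440805-104440832 for Spp1 and chr17:48352230-48352257 for Trem2:
Nos2: cctgactgaaGCACTTTgggtgaccacc
Spp1: aaaagcttctGCACTTTgcttctgttct
Trem2: gtcaacttctGCACTTTggacattaaac
They begin 289, 197 and 216 bases into 3′ UTRs of 502, 432 and 249 bases. A match of this kind is a sequence description and does not show that the microRNA acts on the gene.

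The values are log2 CPM as deposited. Libraries held 28857739 to 42825246 reads, so that 1 read equals 0.0213 to 0.0356 CPM and 1 CPM rests on 28.1 to 46.9 reads. General macrophage markers were present throughout and skeletal muscle genes were abundant, as the tissue label says: the summed CPM of 14 macrophage markers was 5049 to 5455 in anti-miR-106b and 3602 to 3642 in scrambled muscles at day 3, and 436 to 701 in anti-miR-106b and 410 to 664 in scrambled muscles at day 7. All values come from whole muscle, in which fewer macrophages and less RNA per macrophage cannot be told apart. At day 3 the arms differed in makeup: 8 of 14 macrophage markers were higher and 0 lower with the inhibitor (limma, adjusted p below 0.05), while 8 of 8 muscle fibre markers were lower, with a median log2 difference of -0.72. Of all kept genes 16.3% were higher and 19.4% lower. Satellite cell and myoblast markers, of which 3 of 6 passed, were higher, with a median of 0.56, against 0.48 for the macrophage markers. The fibre median was 0.04 under quantile normalization, which ties the most abundant genes together. Mitochondrial genes took 4.80 to 4.83% of reads in anti-miR-106b and 7.54 to 7.76% in scrambled muscles at day 3.

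**Figure D1:**
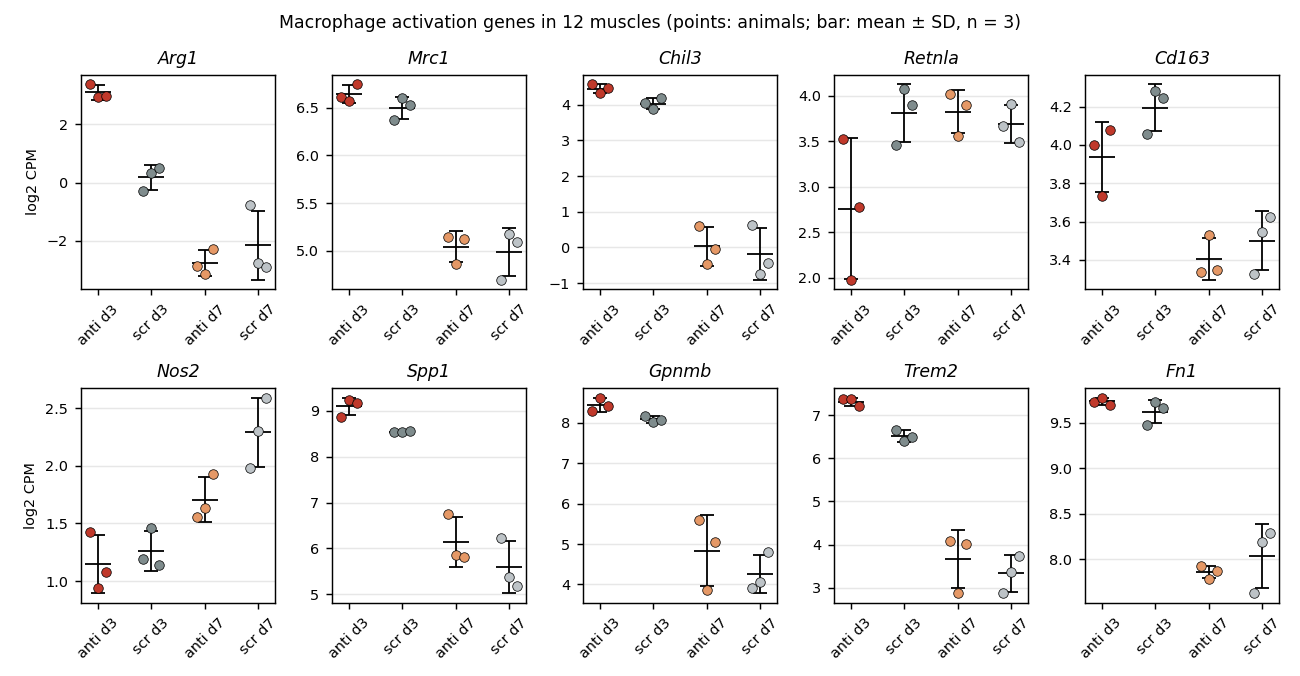
Log2 CPM (vertical axis, own range per gene) of the 10 genes in each of 12 muscles, in the groups anti-miR-106b (anti) and scrambled (scr) at day 3 (d3) and day 7 (d7). Points are animals and bars are the mean ± SD of 3. Arg1 stands apart in the anti-miR-106b muscles of day 3, where all 3 lie above 2.9 log2 CPM, and Arg1 and 7 other genes lie lower at day 7 than at day 3 in both arms.

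Arg1, which splits arginine into ornithine and urea, was 7.43 times as high in mean CPM in anti-miR-106b as in scrambled muscles at day 3. Its values were 10.3, 7.55 and 7.90 CPM in anti-miR-106b muscles, on 484, 336 and 300 reads, against 0.809, 1.25 and 1.41 CPM in scrambled muscles, on 31, 45 and 50 reads. The lowest inhibitor-treated muscle was thus more than 5 times the highest scrambled one, and the groups did not overlap. The log2 difference was 2.91 ± 0.47 (SE, n = 3 and 3). Because Arg1 is low in scrambled muscle, the size of this difference depends on the scale: it was 2.15 with 1 CPM added to each value and 1.14 with 5 CPM added. With 1 library left out it was 2.67 to 3.07, and its sign could not change because the groups did not overlap. Relative to the mean log2 CPM of the 14 macrophage markers, Arg1 was still higher by 2.33 in the anti-miR-106b muscles.

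Nos2, which makes nitric oxide from arginine, did not separate the arms at day 3. It was at 1.43, 0.94 and 1.08 log2 CPM in anti-miR-106b muscles and at 1.19, 1.46 and 1.14 in scrambled muscles, and these ranges overlapped. The log2 difference was -0.11 ± 0.18 (SE), and 0.07 when libraries were scaled to their total reads. Per kilobase of the longest coding transcript (1477 bases for Arg1, 4192 for Nos2), Arg1 was 10.9, 11.2 and 10.6 times the level of Nos2 in anti-miR-106b muscles. In scrambled muscles it was 1.01, 1.29 and 1.82 times that level. By this length, scrambled muscles of day 3 held similar levels of both transcripts, and inhibitor-treated muscles held mostly Arg1. The exons of each gene together span 2228 and 4412 bases, and with these lengths the ratios would be lower. In CPM not divided by length, Nos2 was above Arg1 in every scrambled muscle, at 2.27, 2.75 and 2.20 against 0.809, 1.25 and 1.41. Arg1 lies on chromosome 10 at 24915221 to 24927484, minus strand, and Nos2 on chromosome 11 at 78920787 to 78960254, plus strand (GRCm38).

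The other alternative activation genes did not follow Arg1. Mrc1, the mannose receptor that takes up glycoproteins, was at 6.61, 6.58 and 6.75 log2 CPM in anti-miR-106b muscles, against 6.38, 6.60 and 6.53 in scrambled muscles, and the groups overlapped. Cd163, the receptor for haemoglobin bound to haptoglobin, was at 4.00, 3.73 and 4.08 log2 CPM with the inhibitor and at 4.06, 4.28 and 4.24 without it. Both differences were small, 0.14 ± 0.12 for Mrc1 and -0.26 ± 0.11 for Cd163 (log2, SE), and for Cd163 -0.07 under scaling to total reads. Chil3, a chitinase-like secreted protein also called Ym1, was higher in every anti-miR-106b muscle, with 4.57, 4.32 and 4.46 log2 CPM against 4.04, 3.87 and 4.18 in scrambled muscles. Its log2 difference of 0.42 ± 0.30 is close to that of the macrophage markers, and relative to their mean Chil3 was lower by -0.16. The transcript of Chil3 shares 94.3% of its bases with that of Chil4 over 1539 bases, and 18.5% of its windows of 50 bases occur in Chil4, so reads of the pair may have been exchanged in counting.

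Retnla, the resistin-like secreted protein also called Fizz1 or RELMα, was lower with the inhibitor at day 3. It was at 3.53, 1.98 and 2.78 log2 CPM in anti-miR-106b muscles, on 540, 175 and 260 reads, against 3.46, 4.07 and 3.90 in scrambled muscles, on 422, 607 and 529 reads. The first anti-miR-106b muscle lay within the scrambled range and the other two lay below it. The log2 difference was -1.05 ± 0.29 (SE), or -0.66 without anti-miR-106b replicate 2, the lowest library. Retnla is also made by fat cells and granulocytes, so their markers stand beside it. The 5 adipocyte markers summed to 6.53 to 11.1 CPM in anti-miR-106b and 8.72 to 18.1 CPM in scrambled muscles at day 3, and 2 of the 4 kept ones, Plin1 and Retn, were lower with the inhibitor. The 8 eosinophil and mast cell markers in the table summed to 9.32 to 11.5 CPM in anti-miR-106b and 10.1 to 13.2 CPM in scrambled muscles, with 0 of 3 kept ones passing in limma. None of the marker genes of either list was at 0 in every library, and their part in the Retnla values was not tested.

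The repair genes were higher with the inhibitor at day 3, except Fn1, whose groups overlapped. Trem2, a lipid-sensing receptor of phagocytes, was at 7.36, 7.37 and 7.21 log2 CPM in anti-miR-106b muscles, against 6.65, 6.39 and 6.50 in scrambled muscles. Spp1, or osteopontin, a secreted phosphoprotein that binds integrins and CD44, was at 8.88, 9.24 and 9.17 log2 CPM with the inhibitor, against 8.54, 8.54 and 8.55 without it. Gpnmb, a transmembrane glycoprotein of lysosome-rich macrophages, was at 8.28, 8.62 and 8.41 log2 CPM with the inhibitor, against 8.17, 8.01 and 8.07 without it. None of these 3 genes had overlapping groups. Fn1, the matrix protein fibronectin, which fibroblasts make in bulk, was at 9.72, 9.77 and 9.70 log2 CPM in anti-miR-106b muscles and at 9.48, 9.73 and 9.66 in scrambled muscles. The log2 differences were 0.80 ± 0.26 for Trem2, 0.55 ± 0.26 for Spp1, 0.35 ± 0.32 for Gpnmb and 0.11 ± 0.13 for Fn1 (SE).

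The macrophage markers themselves differed between the arms at day 3, so each gene was also set against them. Relative to the mean log2 CPM of the 14 markers, Trem2 was higher by 0.22 in anti-miR-106b muscles, Spp1 differed by -0.03, Gpnmb by -0.23 and Fn1 by -0.47 (log2). The same measure was -0.44 for Mrc1, -0.84 for Cd163, -0.69 for Nos2 and -1.63 for Retnla. Of the 10 genes only Arg1 and Trem2 were positive on it. Whether the larger macrophage signal accounts for the differences in CPM was not tested.

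**Figure D2:**
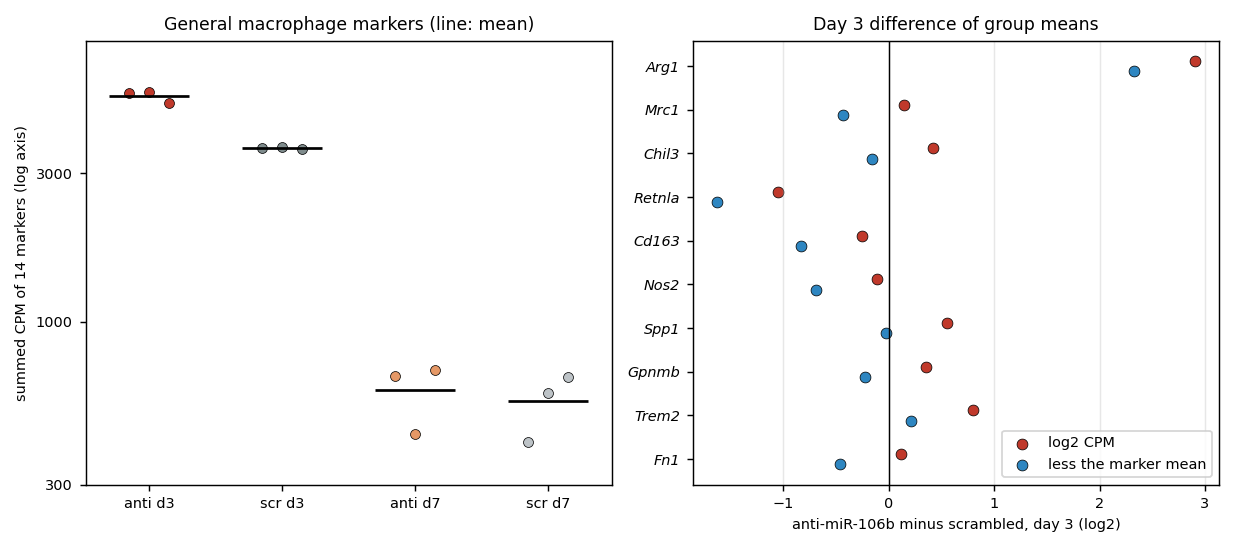
Left, summed CPM of 14 general macrophage markers per muscle (log axis; points are animals, lines are means) in anti-miR-106b (anti) and scrambled (scr) groups at day 3 (d3) and day 7 (d7). Right, the day 3 difference, anti-miR-106b minus scrambled, of each gene's mean log2 CPM (red) and of the same after the markers' mean is taken off (blue); Arg1 stays at 2.33 and 8 of the 10 genes fall below 0.

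Over all 10 genes at day 3, 7 were higher and 3 lower in anti-miR-106b muscles, and 5 had groups that did not overlap, namely Arg1, Chil3, Spp1, Gpnmb and Trem2, each of them higher. Among all kept genes 60.5% had groups that did not overlap, 31.2% with the inhibitor higher and 29.3% with it lower. The median log2 difference was 0.25 over the 10 genes and 0.01 over all kept genes. Nothing is read from these counts, since the genes were picked with this contrast in view. Scaled to total reads, the median kept gene differed by 0.20, and against that shift Mrc1 at 0.33 and Fn1 at 0.30 lay above it and Nos2 at 0.07 and Cd163 at -0.07 below it.

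Genes of the same pathways that are not among the 10 were also fitted at day 3. The lists here and in the next paragraphs were chosen with earlier results of these data known. Their day 3 counts are therefore a description and no independent support. Of 16 kept genes of alternative activation 1 was higher and 0 were lower with the inhibitor, with a median log2 difference of 0.01. That gene, named here after its values were seen, was Il4ra, the receptor subunit for interleukin 4 and interleukin 13, at 5.97 ± 0.10 log2 CPM in anti-miR-106b and 5.17 ± 0.06 in scrambled muscles (SD, n = 3 each; adjusted p = 6.17e-04 in limma). Tgm2, Cbr2 and Stat6, the most abundant of this list, did not pass, with differences of 0.12, 0.23 and 0.14. Of 13 kept inflammatory genes 3 were higher and 0 lower, with a median of 0.39. Among them were the chemokine Cxcl9 at 0.90 ± 0.26 and the NAD-consuming enzyme Cd38 at 0.39 ± 0.09 (log2 difference, SE), both named after their values were seen. Ccr2 and Irf5, among the most abundant of the list, had 0.06 and -0.05 and did not pass. Among all kept genes 35.7% passed at day 3, with 2296 (16.3%) higher and 2726 (19.4%) lower, or 5189 higher and 1377 lower when libraries were scaled to total reads.

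Of the 19 kept genes of a wider repair and lipid-handling list 10 were higher and 0 lower with the inhibitor at day 3, with a median log2 difference of 0.34, where 16.3% of all kept genes were higher and 19.4% lower. Among them were the lysosomal proteases Ctsb at 0.52 ± 0.09 and Ctsd at 0.62 ± 0.08, the lipid carrier Apoe at 0.70 ± 0.24, and Tyrobp, the adaptor through which Trem2 signals, at 0.71 ± 0.20 (SE). The growth factor Gdf3, which in mice is made by repair macrophages of muscle, differed by 1.46 ± 0.50. In the haem list 6 of 9 genes were higher and 0 lower, with Hmox1, which breaks down haem, at 1.12 ± 0.14 and the ferritin light chain Ftl1 at 0.92 ± 0.14, while Cd163, the haemoglobin receptor, was not higher. Of the 9 receptors for osteopontin and fibronectin 3 were higher and 0 lower, the integrin subunits Itgb5 (0.48 ± 0.09), Itga5 (0.47 ± 0.12) and Itga9 (0.56 ± 0.15), whereas the most abundant one, Itgb1, the common beta subunit, had a difference of 0.03 ± 0.07 and did not pass. The share of receptors that passed was close to the 35.7% of all kept genes. Genes named from these lists and the next, other than the most abundant ones, were chosen after their values were seen.

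Around Arg1 and Nos2, the genes of arginine and polyamine metabolism moved in both directions at day 3. Of 15 kept genes 3 were higher and 6 lower with the inhibitor, with a median log2 difference of 0.06, where 35.7% of all kept genes passed. Ass1, which rebuilds arginine from citrulline, was higher by 0.97 ± 0.18, the polyamine acetylase Sat1 by 0.63 ± 0.10 and spermidine synthase Srm by 0.48 ± 0.14. Among the lower genes were Slc7a2, an arginine transporter, at -0.47 ± 0.10, and Oat, the enzyme that takes up ornithine, at -0.35 ± 0.07. Ornithine decarboxylase Odc1, the entry to polyamines, had a difference of 0.06 ± 0.17 and did not pass. The neuronal-type synthase Nos1, which muscle fibres make, was lower by -0.96 ± 0.17 (adjusted p = 8.97e-04), and the endothelial Nos3 differed by 0.11 ± 0.12 and did not pass. The second arginase, Arg2, had 0 to 8 reads per library and was not tested.

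At day 7, none of the 10 genes passed between the arms (limma over 14063 genes, adjusted p below 0.05), where Arg1 had too few reads for the test to inform, and 0.064% of all kept genes passed, 0.00711% higher and 0.0569% lower. With an unadjusted p below 0.05 there was 1 of the 10, Nos2, against 11.2% of kept genes, and limma with voom weights on the reads also called 0 of the 10. The 3 animals of each arm overlapped for 9 genes, and Nos2 was the exception, while 10.9% of kept genes did not overlap, 5.69% with the inhibitor lower and 5.18% with it higher. Of the 10 genes 6 were higher and 4 lower with the inhibitor, with a median log2 difference of 0.10, against 0.01 over all kept genes.

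Nos2 was lower in every anti-miR-106b muscle at day 7, with 1.56, 1.63 and 1.93 log2 CPM on 91, 87 and 114 reads, against 1.98, 2.30 and 2.59 in scrambled muscles on 131, 175 and 189 reads. The groups did not overlap, although the highest inhibitor-treated and the lowest scrambled muscle were 0.06 apart. The log2 difference was -0.58 ± 0.18 (SE, 95% interval -0.97 to -0.20), with adjusted p = 0.248 in limma, so it did not pass. In mean CPM, Nos2 was at 3.28 ± 0.454 in anti-miR-106b and 4.96 ± 1.03 in scrambled muscles (SD, n = 3 each). Its 3′ UTR carries 1 copy of GCACTTT, printed above, and 1937 of the 12931 kept genes with a 3′ UTR carry at least 1. Nos2 was lower with the inhibitor, and whether the microRNA acts on it was not tested. Endothelial markers lay in the same direction: their summed CPM was 193 to 218 in anti-miR-106b and 254 to 272 in scrambled muscles at day 7, with a median log2 difference of -0.38. Of the 6 markers 0 passed in limma and 5 had an unadjusted p below 0.05. Their part in the Nos2 values was not tested.

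Arg1 no longer separated the arms at day 7. It was at 0.129, 0.107 and 0.200 CPM in anti-miR-106b muscles, on 4, 3 and 6 reads, against 0.573, 0.141 and 0.127 CPM in scrambled muscles, on 19, 5 and 4 reads. With 13 reads in all in the inhibitor arm and 28 in the scrambled arm, little could be detected at this depth. The scrambled mean rests on replicate 1, which holds 19 of those reads. The log2 difference was -0.61 ± 0.47 (SE), and 0.07 without that library, and its failure to pass is no sign of equal levels.

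Among the repair genes, Spp1, Gpnmb and Trem2 had higher means with the inhibitor at day 7 and did not pass, and Fn1 had a lower mean and did not pass. Spp1 was at 6.76, 5.85 and 5.81 log2 CPM in anti-miR-106b muscles and at 6.23, 5.37 and 5.18 in scrambled muscles. Gpnmb was at 5.59, 3.86 and 5.06 with the inhibitor and at 3.92, 4.07 and 4.80 without it, and Trem2 at 4.09, 2.88 and 4.03 with it and at 2.89, 3.37 and 3.74 without it. All 3 overlapped, and the spread within an arm reached 1.73 log2 units for Gpnmb. The differences were 0.55 ± 0.26 for Spp1 (95% interval -0.00 to 1.10, adjusted p = 0.449), 0.57 ± 0.32 for Gpnmb (-0.12 to 1.27, adjusted p = 0.545) and 0.33 ± 0.26 for Trem2 (-0.23 to 0.90, adjusted p = 0.694 in limma). Without anti-miR-106b replicate 2, the muscle with the lowest Gpnmb and Trem2, the differences were 1.06 for Gpnmb and 0.73 for Trem2, with adjusted p = 0.0536 and 0.0929. Without anti-miR-106b replicate 1, the muscle with the highest values, they were 0.20 for Gpnmb, 0.12 for Trem2 and 0.24 for Spp1, and without scrambled replicate 1 Trem2 was at 0.11. Without scrambled replicate 3 Spp1 was at 0.34 and Trem2 at 0.54.

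The remaining genes had smaller mean differences between the arms at day 7 and did not pass. Fn1 was at 7.92, 7.79 and 7.87 log2 CPM in anti-miR-106b muscles and at 7.63, 8.19 and 8.28 in scrambled muscles, a difference of -0.18 ± 0.13. Mrc1 averaged 5.04 ± 0.16 log2 CPM in anti-miR-106b and 4.99 ± 0.26 in scrambled muscles, and Cd163 3.40 ± 0.11 in anti-miR-106b and 3.50 ± 0.15 in scrambled muscles (SD, n = 3 each). Retnla averaged 3.83 ± 0.23 with the inhibitor and 3.69 ± 0.21 without it, and Chil3 0.03 ± 0.55 with the inhibitor and -0.19 ± 0.72 without it. For Chil3 the sign of the difference, 0.22 ± 0.30, turned to -0.07 without anti-miR-106b replicate 1. Adjusted p in limma ran from 0.674 for Fn1 to 0.901 for Mrc1 and Retnla. The 95% intervals allow a log2 difference of up to 0.30 for Mrc1, 0.75 for Retnla and 0.87 for Chil3, and down to -0.46 for Fn1. A moderate difference could therefore have been missed.

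The day 7 comparison depended on single libraries. Scrambled replicate 1 had the lowest summed macrophage markers of day 7, at 410 CPM, against 590 and 664 CPM in the other scrambled muscles, and the lowest Fn1, Mrc1, Trem2, Gpnmb and Nos2 of its arm together with the highest Arg1, Chil3 and Spp1. Without it, 457 genes passed instead of 9, and 3 of the 10 genes were among them: Fn1 at -0.38 (adjusted p = 0.0243), Spp1 at 0.87 (adjusted p = 0.0432) and Nos2 at -0.74 (adjusted p = 0.0471). Within the anti-miR-106b arm, replicate 2 had the lowest macrophage markers, at 436 CPM against 670 and 701 CPM. Without that library 70 genes passed, and without scrambled replicate 2 the count was 0, with 0 of the 10 genes in either case. Among the other genes of the activation pathways, no gene of the alternative, inflammatory, repair, arginine, haem or receptor lists passed at day 7, in limma, with list medians of 0.03 to 0.12. At an unadjusted p below 0.05 these lists had 0, 2, 3, 3, 2 and 1 genes. They held 16, 13, 19, 15, 9 and 9 kept genes, and 11.2% of all kept genes reached that level.

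**Figure D3:**
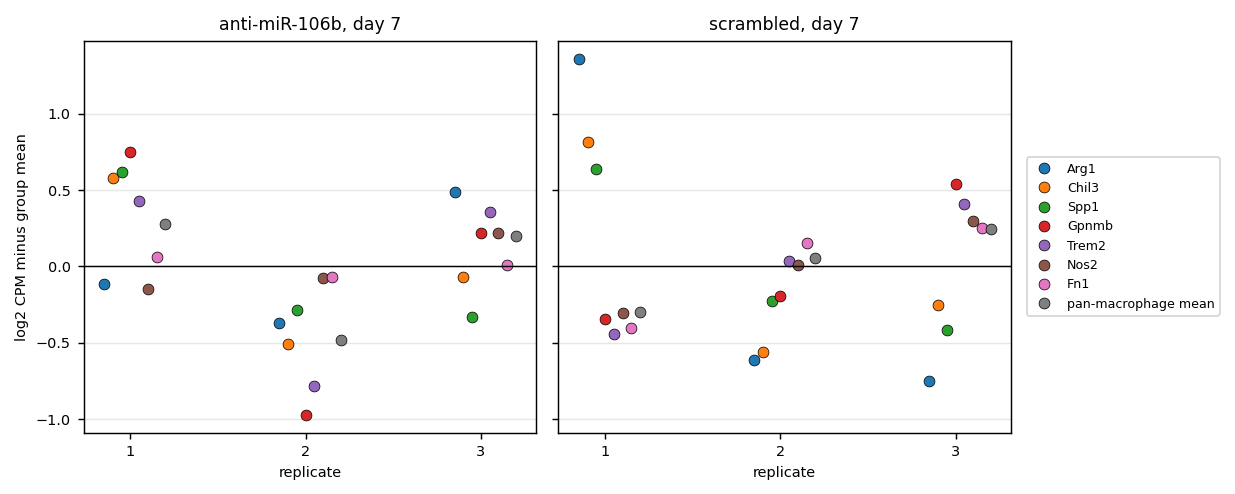
Log2 CPM of 7 genes and of the mean of 14 macrophage markers in each day 7 muscle, as the distance from the mean of its group (vertical axis) by replicate, for anti-miR-106b (left) and scrambled (right). In scrambled replicate 1, Arg1, Chil3 and Spp1 lie 0.64 to 1.36 above the group mean while the other genes lie below it.

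**Figure D4:**
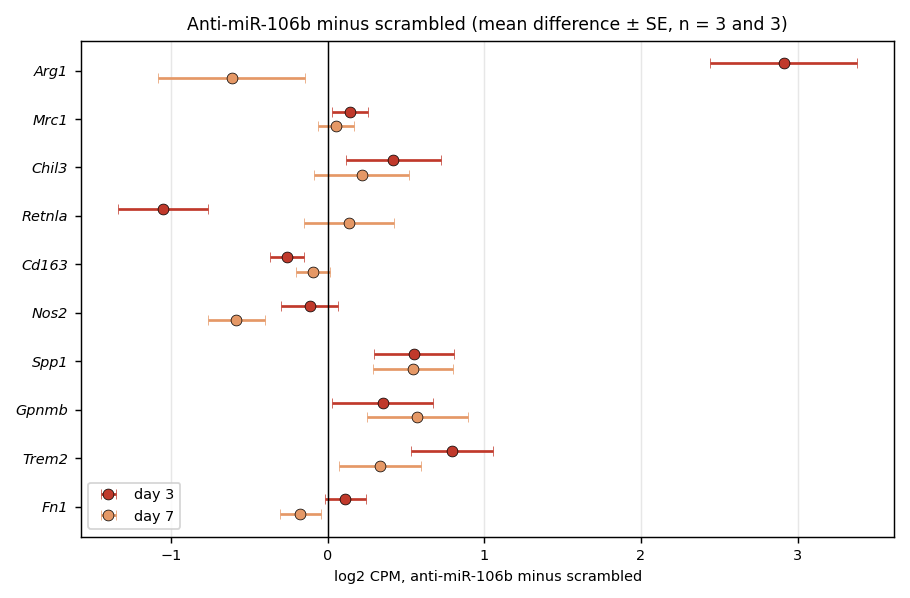
Difference in log2 CPM, anti-miR-106b minus scrambled, for each gene at day 3 (dark) and day 7 (light). Points are differences of group means and bars are ± SE (3 animals each); Arg1 is at 2.91 at day 3 and -0.61 at day 7, and day 3 values are shown as a description.

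Between day 3 and day 7 most of the tested genes fell in both arms. These comparisons share their day 3 libraries with the contrast behind the choice of the genes, and Arg1 and Chil3 are given without a test. Of the other 8 genes, 2 were higher and 6 lower at day 7 than at day 3 in anti-miR-106b muscles (limma, adjusted p below 0.05). Of all kept genes 78.7% passed in that arm, 37.9% higher and 40.8% lower. In scrambled muscles 1 was higher, 6 were lower and 1 did not pass, while 68.2% of kept genes passed, 32.9% higher and 35.3% lower. Counting Arg1 and Chil3, the days did not overlap for 2 higher and 8 lower genes in the anti-miR-106b arm, against 81.1% of kept genes (39.5% higher, 41.7% lower). In the scrambled arm they did not overlap for 1 higher and 8 lower genes, against 72.4% of kept genes (34.9% higher, 37.5% lower). The median log2 change of the 10 genes was -2.42 in the anti-miR-106b arm and -1.96 in the scrambled arm, against -0.02 and -0.00 over all kept genes. The overlap counts and these medians include Arg1 and Chil3, which met the filter through day 3, so neither is read as a result. Scaled to total reads instead, the median kept gene changed by -0.67 in the anti-miR-106b arm and -0.42 in the scrambled arm. In the anti-miR-106b arm 2152 genes were then higher and 9745 lower, in place of 5331 and 5736. In the scrambled arm 1519 were higher and 8711 lower, in place of 4624 and 4963.

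Chil3, Gpnmb, Trem2 and Spp1 had the larger changes apart from Arg1. In anti-miR-106b muscles Chil3 was at 0.03 ± 0.55 log2 CPM at day 7, against 4.45 ± 0.12 at day 3, and in scrambled muscles at -0.19 ± 0.72, against 4.03 ± 0.16 (SD, n = 3 each). The changes were -4.42 ± 0.30 and -4.22 ± 0.30 (SE), or 20.5-fold and 17.2-fold lower in mean CPM. Gpnmb changed by -3.60 ± 0.32 in the anti-miR-106b arm and -3.82 ± 0.32 in the scrambled arm, Trem2 by -3.64 ± 0.26 and -3.18 ± 0.26, and Spp1 by -2.96 ± 0.26 and -2.95 ± 0.26, each pair in the same order of arms. Adjusted p of Gpnmb, Trem2 and Spp1 in limma was at most 1.59e-07 in the anti-miR-106b arm and 3.44e-07 in the scrambled arm.

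Mrc1, Fn1 and Cd163 fell less. Mrc1 changed by -1.60 ± 0.12 in the anti-miR-106b arm and -1.51 ± 0.12 in the scrambled arm, and Fn1 by -1.87 ± 0.13 and -1.59 ± 0.13. Cd163 changed by -0.53 ± 0.11 with the inhibitor (adjusted p = 4.77e-04 in limma) and -0.70 ± 0.11 without it (adjusted p = 7.51e-05), and with the inhibitor it was -0.25 under quantile normalization and did not pass (adjusted p = 0.0606). The general macrophage markers fell in both arms as well, 14 of 14 in each, with median changes of -3.04 with the inhibitor and -2.65 without it. Relative to their mean, Mrc1, Fn1 and Cd163 were higher at day 7 than at day 3, by 1.60, 1.33 and 2.67 in anti-miR-106b muscles and by 1.18, 1.11 and 2.00 in scrambled muscles, while Chil3 was lower by -1.22 and -1.52. The 8 fibroblast markers, which bear on Fn1, summed to 3296 to 3655 CPM at day 7 and 8423 to 9592 CPM at day 3 in anti-miR-106b muscles, and to 2803 to 4549 CPM and 7260 to 7948 CPM in scrambled muscles. Their part in the fall of Fn1 was not tested.

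Nos2 went the other way. It averaged 1.71 ± 0.19 log2 CPM at day 7, against 1.15 ± 0.25 at day 3, in anti-miR-106b muscles, and 2.29 ± 0.30, against 1.26 ± 0.17, in scrambled muscles (SD, n = 3 each). The increase was 0.56 ± 0.18 with the inhibitor (adjusted p = 0.0116 in limma) and 1.03 ± 0.18 without it (adjusted p = 1.96e-04). In the anti-miR-106b arm the call depended on the scaling and on single animals: it was -0.066 (adjusted p = 0.745) with scaling to total reads, where the median gene changed by -0.67, and 0.45 without anti-miR-106b day 3 replicate 2 or day 7 replicate 3 (adjusted p = 0.0553 and 0.0550). In the scrambled arm it was 0.62 and passed (adjusted p = 0.00883) with that scaling. Markers of endothelium and muscle fibres were also higher at day 7 on the deposited scale. Endothelial markers were higher for 4 of 6 in the anti-miR-106b arm and 6 of 6 in the scrambled arm, with medians of 0.28 and 0.72. Muscle fibre markers were higher for 8 of 8 in each arm, with medians of 1.61 and 0.85. Of all kept genes 37.9% and 32.9% were higher. With scaling to total reads the endothelial medians were -0.35 in the anti-miR-106b arm and 0.32 in the scrambled arm. The fibre medians were then 0.99 and 0.44, and 0.01 in each arm under quantile normalization. Their part in the change of Nos2 was not tested. The level of Nos2 stayed low, between 0.94 and 2.59 log2 CPM in all 12 libraries.

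Retnla rose in the anti-miR-106b arm and did not pass in the scrambled arm. In anti-miR-106b muscles it was at 3.83 ± 0.23 log2 CPM at day 7, against 2.76 ± 0.77 at day 3, a change of 1.07 ± 0.29 (SE, adjusted p = 0.0037 in limma). In scrambled muscles it was at 3.69 ± 0.21 and 3.81 ± 0.32, a change of -0.12 ± 0.29 (95% interval -0.74 to 0.50, adjusted p = 0.723). The rise was 0.67 (adjusted p = 0.0157) without anti-miR-106b day 3 replicate 2, and 0.44 and not called (adjusted p = 0.16) with scaling to total reads. The difference between the arms was not tested, because it includes the day 3 contrast. Of the kept adipocyte markers 4 of 4 were higher at day 7 than at day 3 in anti-miR-106b muscles, as were 37.9% of all kept genes. In scrambled muscles 0 of 4 passed, with a median change of 0.32. Of the 3 kept eosinophil and mast cell markers 0 passed in anti-miR-106b muscles. In scrambled muscles 1 of these was higher and 2 were lower. The part of either list in the change of Retnla was not tested.

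Arg1 was low at day 7 in both arms. In anti-miR-106b muscles its mean was 0.145 ± 0.0485 CPM at day 7, against 8.59 ± 1.51 CPM at day 3, which is 59.1-fold lower on 13 reads against 1120. In scrambled muscles it was 0.280 ± 0.253 CPM against 1.16 ± 0.311 CPM, 4.13-fold lower on 28 reads against 126. The log2 changes, -5.85 with the inhibitor and -2.33 without it (-3.01 without scrambled day 7 replicate 1), depend on the small number added before the logarithm, and with 1 CPM added they were -3.05 with the inhibitor and -0.76 without it. On that scale Gpnmb, Trem2 and Chil3 changed more than Arg1 in the anti-miR-106b arm, by -3.55, -3.54 and -3.48. Per kilobase, Arg1 was 0.125, 0.0979 and 0.149 times the level of Nos2 in the anti-miR-106b muscles of day 7. In the scrambled ones it was 0.412, 0.0811 and 0.0601 times that level. By the transcript length used here, Nos2 exceeded Arg1 in every day 7 muscle and in no day 3 muscle. In CPM not divided by length, Nos2 exceeded Arg1 in every scrambled muscle of day 3 as well.

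**Figure D5:**
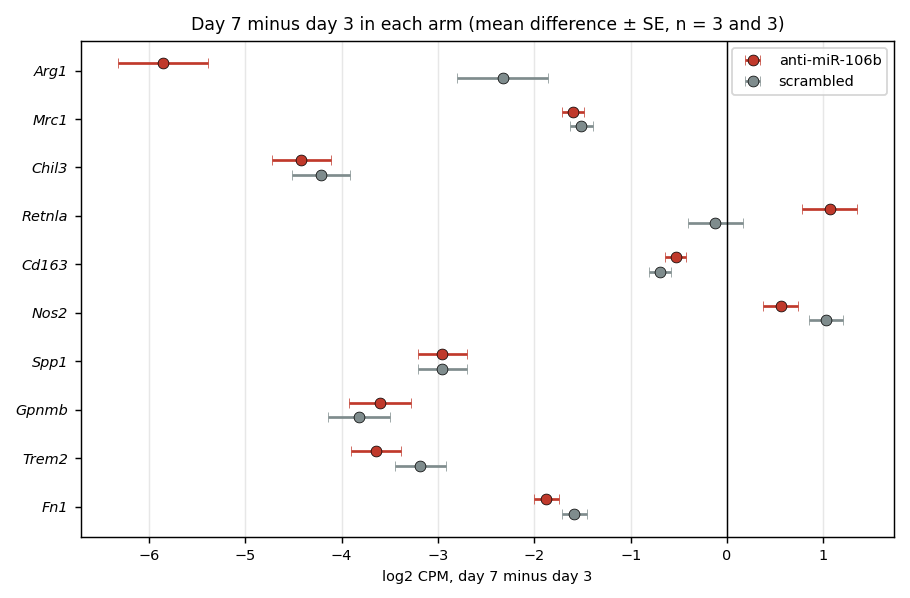
Change in log2 CPM, day 7 minus day 3, for each gene in the anti-miR-106b arm (red) and the scrambled arm (grey). Points are differences of group means and bars are ± SE (3 animals each); Nos2 lies right of 0 in both arms, Retnla in the anti-miR-106b arm only, and Arg1 and Chil3 are shown as a description.

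Most other genes of the pathways were also lower at day 7, apart from the arginine and polyamine list. Among all kept genes 40.8% were lower and 37.9% higher in the anti-miR-106b arm. In the scrambled arm 35.3% were lower and 32.9% higher. Of 13 kept inflammatory genes 12 were lower at day 7 and 0 higher in each arm, among them Ccr2, the receptor that draws monocytes into tissue, at -2.52 ± 0.17 with the inhibitor and -2.56 ± 0.17 without it. Of 19 repair and lipid genes 16 were lower in each arm, and Cd36, named after its values were seen, was the 1 higher in the anti-miR-106b arm. Of 16 alternative activation genes 12 were lower in the anti-miR-106b arm and 13 in the scrambled arm, and Tgm2 was the 1 higher in each, by 0.37 and 0.34. Of 15 arginine and polyamine genes 8 were higher and 6 lower in the anti-miR-106b arm and 7 higher and 6 lower in the scrambled arm. In the haem list 6 of 9 were lower in each arm, and in the receptor list 8 of 9. Nos2 was thus higher at day 7 while 12 of 13 other genes of its list were lower.

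The order of the 4 groups differed by gene. Mrc1, Chil3, Spp1, Gpnmb and Trem2 had the same order of means, with both day 7 groups below both day 3 groups and the inhibitor above the scrambled arm on each day, and the day 7 neighbours overlapped in all 5. Arg1 and Fn1 had the day 7 arms in the opposite order, and they too overlapped. Nos2 was lowest in the day 3 groups, which overlapped, then in anti-miR-106b day 7, and highest in scrambled day 7. Cd163 was lower in both day 7 groups than in both day 3 groups, and the arms overlapped on each day. Retnla was lowest in anti-miR-106b day 3, and every neighbouring pair of groups overlapped. Per kilobase of transcript, Spp1 was the highest of the 10 in each group, at 365 CPM in anti-miR-106b and 248 CPM in scrambled muscles at day 3, and 49.1 CPM in anti-miR-106b and 33.8 CPM in scrambled muscles at day 7. Nos2, at 0.533 and 0.574 CPM per kilobase in anti-miR-106b and scrambled muscles, was the lowest at day 3, and Arg1, at 0.0983 and 0.190, the lowest at day 7. In mean CPM not divided by length, Arg1 was below Nos2 in scrambled muscles of day 3, at 1.16 against 2.41.

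Genes with the most similar profile over the 12 libraries are given as a description, since the day 3 to day 7 change dominates each correlation and all genes share the same libraries. For Arg1 they were Pfkl (r = 0.992), a subunit of phosphofructokinase, Dhrs3 (0.988), Phkg2 (0.983), Miip (0.981) and Trim12a (0.976). For Trem2 they were the fusion protein Mymk (0.999), Tnnt2 (0.999) and Ms4a6d (0.999), of which the first pair is made by differentiating muscle cells and not by macrophages. For Gpnmb they were Lat2, Cd84 and St8sia2 (0.997 to 0.998), for Mrc1 Cd86, Selenop and Folr2 (0.996 to 0.998), for Chil3 Cds1, Aatk and Rhov (0.995 to 0.997), for Spp1 Api5 and Rbms1 (0.993 to 0.996) and for Fn1 Sh3pxd2b, Arsi and Cthrc1 (0.996 to 0.997). Cd163 was nearest to Pdgfra, a receptor of fibroblasts (0.974), Ubtd2 and Chp2, and Nos2 to Med16 (0.966), Fam173b and Nck2. Retnla had no close neighbour, with 0.893 for Gm28941 as the highest value, followed by Txlng and Gm43305.

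Promoter sequences are shown for the 3 repair genes that fell together and for Retnla, which did not. RefSeq promoters (GRCm38.p6, 300 bases each, ending shortly after the start site) were matched for 7 of the 10 genes, with 2 for Spp1, of which the upstream one is printed. Both strands were searched for the palindrome bound by STAT6 (TTC and GAA with 4 bases between), GAGGAAGT (a core of PU.1, the macrophage lineage factor), TGANTCA (AP-1), CACGTG (the E-box of MITF and TFE factors) and TCATGTG (the M-box core). Matches are in capitals:
Spp1, chr5:104434861-104435160, plus strand: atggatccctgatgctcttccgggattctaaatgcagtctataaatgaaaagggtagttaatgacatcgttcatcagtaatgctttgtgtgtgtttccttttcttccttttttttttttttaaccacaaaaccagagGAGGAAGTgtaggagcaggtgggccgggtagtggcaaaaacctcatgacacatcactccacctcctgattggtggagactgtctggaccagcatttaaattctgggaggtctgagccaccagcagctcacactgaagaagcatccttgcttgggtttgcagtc
Gpnmb, chr6:49036268-49036567, plus strand: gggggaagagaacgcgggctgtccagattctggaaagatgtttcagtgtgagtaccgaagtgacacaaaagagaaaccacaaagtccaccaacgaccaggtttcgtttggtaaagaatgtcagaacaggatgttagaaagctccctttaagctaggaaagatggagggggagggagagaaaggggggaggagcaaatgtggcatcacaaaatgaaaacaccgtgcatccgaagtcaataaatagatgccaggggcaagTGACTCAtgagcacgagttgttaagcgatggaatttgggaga
Trem2, chr17:48346151-48346450, plus strand: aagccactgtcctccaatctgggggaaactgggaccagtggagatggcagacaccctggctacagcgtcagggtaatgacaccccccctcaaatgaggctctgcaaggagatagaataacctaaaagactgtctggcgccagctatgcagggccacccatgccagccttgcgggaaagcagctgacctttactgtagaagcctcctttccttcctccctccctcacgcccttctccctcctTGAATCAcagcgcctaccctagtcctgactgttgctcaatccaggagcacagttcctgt
Retnla, chr16:48842359-48842658, plus strand: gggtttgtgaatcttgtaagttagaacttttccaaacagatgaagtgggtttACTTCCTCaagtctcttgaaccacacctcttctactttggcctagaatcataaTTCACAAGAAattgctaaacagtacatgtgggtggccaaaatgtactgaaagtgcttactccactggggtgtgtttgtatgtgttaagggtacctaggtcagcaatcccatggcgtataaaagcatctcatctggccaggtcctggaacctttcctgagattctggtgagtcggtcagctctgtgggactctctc
The PU.1 core lay 113 bases before the start site in Spp1 and 198 before it, on the other strand, in Retnla, where the STAT6 palindrome lay 145 before it. The AP-1 letters lay 9 bases before the start site in Trem2 and at base 9 after it in Gpnmb. Of 32851 promoters of this length, 2284 (6.95%) held the STAT6 palindrome, 1052 the PU.1 core and 2565 (7.81%) the AP-1 letters. CACGTG and TCATGTG, in 7.15% and 3.77% of promoters, were in none of the members' windows. A match describes letters in this window and not binding.

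Some counts have limits of annotation. Fn1 overlaps the antisense gene Apol7d, Spp1 overlaps Gm42793 on the same strand, and Mrc1 contains Mir511. Whether reads were counted by strand is not stated in the sources used here, so reads of Fn1 and Apol7d cannot be told apart. Retnlg, the neutrophil relative of Retnla, had 5 to 35 reads per library and was not tested. No values of Chil4 or Retnlb were analysed here.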

How the data were processed

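RNA of 12 whole tibialis anterior muscles was sequenced, and the authors deposited 1 table of log2 CPM per gene symbol. The submitters' processing notes list edgeR 3.20.9, limma 3.34.9, featureCounts, STAR, Trim Galore 0.4.3.1, FastQC 0.72 and build mm10, without their roles. Each value corresponded to a whole number of reads within 0.001 reads after removal of a prior averaging 0.25 reads, with library sizes scaled between samples, so reads and CPM were recovered from it. Genes with at least 1 CPM in at least 3 libraries were fitted in limma 3.58.1 (R 4.3.3, trended prior) over the 4 groups, with Benjamini-Hochberg adjustment over all kept genes and a threshold of 0.05. The deposited log2 values were fitted, and no count model was run on the recovered reads. The members and gene lists were chosen with earlier results of these data known. Named genes were the members, the most abundant genes of each list and the nearest profiles of each member, with others named as chosen after their values were seen. Alternatives covered filter, added CPM, scaling, weights, block and left-out libraries. The fit was tested on simulated counts with the same low spread for every gene. That test does not cover genes that varied more between muscles, such as Gpnmb at day 7. The p-values rest on a spread pooled over the 4 groups and moderated by the trended prior, with libraries taken as independent. Some genes that this rule names are not reported here.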

Additional observations from a re-analysis of the deposited data

How the results depend on the processing

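At day 7, the number of genes called between anti-miR-106b and scrambled muscles was 9 and became 20 with a 0.5 CPM filter, 15 with no filter, 35 with 1 CPM added, 46 with 5 CPM added, 29 with total-count scaling, 17 with quantile normalization, 58 with library weights and 2 when only the compared groups were fitted. Leaving out 1 library gave 0 to 457 genes, with 0 to 3 of the 10 members. At day 3 the count of 5022 became 8820 with library weights, and 3488 to 5673 with 1 library left out. With 1 library left out, the day 7 against day 3 counts were 8555 to 9678 in the scrambled arm, with 8 members, and 10526 to 11191 in the anti-miR-106b arm, with 8 to 9 members. Member counts over time in this section are of 9 genes. They include Chil3, which met the filter through day 3, so they show only how calls vary with the setting. The other settings gave 9200 to 10611 genes in the scrambled arm and 11006 to 12923 in the anti-miR-106b arm, where 7 members passed under total-count scaling and 8 under quantile normalization. Nos2 in the anti-miR-106b arm reversed to -0.066 under total-count scaling, and the cause was not tested. Voom weights, chosen after seeing the data, called 9 genes at day 7. Whether equal replicate numbers mark paired animals is not settled by these values. Between the arms, residual correlations of equal numbers were 0.0281 to 0.0974 at day 3 and -0.0424 to 0.144 at day 7. Between the days within an arm they were -0.185 to 0.0688. At day 3, 6 of 6 libraries correlated best with their own number in the other arm, and at day 7, 3 of 6. The fit with a replicate block called 23 genes at day 7, 4921 at day 3, 9508 over time in the scrambled arm and 11020 in the anti-miR-106b arm, and changed no member's call. Tests with edgeR and DESeq2 were not run, although reads had been recovered. Depth limits Arg1 at day 7, where libraries had 3 to 19 reads.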

Other observations

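Markers of other leukocytes had low summed levels, which do not measure the share of RNA from those cells. T and NK cell markers summed to 15.5 to 19.8 CPM in anti-miR-106b and 10.3 to 10.4 CPM in scrambled muscles at day 3, and Cd4 was the 1 of 3 kept markers that was higher. At day 7 they summed to 3.43 to 4.16 CPM in anti-miR-106b and 2.29 to 5.69 CPM in scrambled muscles. Neutrophil markers summed to 25.9 to 31.1 CPM in anti-miR-106b and 15.7 to 27.2 CPM in scrambled muscles at day 3, with 0 of 4 kept ones passing in limma and 0 at an unadjusted p below 0.05. B cell markers summed to 55.2 to 61.1 CPM in anti-miR-106b and 50.7 to 63.9 CPM in scrambled muscles at day 3, and Cd79b was higher. Dendritic cell markers summed to 42.2 to 43.7 CPM in anti-miR-106b and 43.0 to 52.1 CPM in scrambled muscles at day 3, with 0 of 6 passing and 0 at an unadjusted p below 0.05. Both Cd4 and Cd79b were named after their values were seen.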
